A study of Mus musculus with 2 samples.

Results

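The mitochondrial ribosomal protein genes were taken as all gene symbols in the deposited tables that begin with *Mrpl* or *Mrps* and go on with a number and at most 1 further letter. This rule found 77 of 23183 genes, 48 named for the large subunit (*Mrpl*) and 29 named for the small subunit (*Mrps*). All 77 were expressed in these cells, with a mean of 7.83 to 150 FPKM over both libraries (fragments scaled to transcript length and to the size of the library, so a level per length).

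The mitochondrial ribosome, or mitoribosome, makes the few proteins that mitochondrial DNA encodes, all of them subunits of the respiratory chain and the ATP synthase. Its ribosomal RNAs come from mitochondrial DNA, but every protein of its large and small subunits is encoded in the nucleus, made in the cytosol and imported. Some of these proteins have counterparts in all ribosomes, others only in bacterial ribosomes, and many belong to mitochondria alone.

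KPR- is an immortalized mouse cell line from lung cancers of KPR L/F-TAM(-) mice, and KPRrestored cells are KPR- cells in which *Runx3* was switched back on. Both carry Cre-activated *K-Ras* LSL-G12D/+, *p53* flox/flox deleted by Cre, *Runx3* flox/FSF (a floxed allele beside an allele silenced by a Frt-Stop-Frt cassette), Tomato and FlpERT2, a recombinase that becomes active with 4-hydroxytamoxifen (4-OHT) and removes the cassette. The labels give the genotype RUNX3 -/- at 0 h for the KPR- library and RUNX3 -/+ at 16 h for the KPRrestored library, with 1 μM 4-OHT for both, so restoration, drug exposure and time cannot be told apart. The comparison asks how RNA levels differ once *Runx3* is back, and 1 poly(A)-selected RNA library was sequenced per condition, so no difference has a replicate check. Cre was delivered to the airways by adenovirus, and how many tumours or mice the line represents is not given in the sources used here.

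Low FPKM values fall on steps of whole fragments, which gave an estimated depth of 21.8 M fragments in KPR- and of 22.4 M in KPRrestored. *Runx3* itself stood at 0.348 and 0.349 FPKM (KPR- first, as in all pairs of FPKM or fragments here), on about 28 and 29 fragments. Its log2 difference was 0.0074, and counting error alone allowed -0.79 to 0.81 (95% interval). This value does not check the labels, and every direction here is that of the library labelled KPRrestored against the library labelled KPR-. The 5 epithelial markers *Epcam*, *Krt8*, *Krt18*, *Krt19* and *Cdh1* summed to 4881 FPKM and 4625 FPKM, each over 91 FPKM in both libraries. Of the fibroblast markers, *Col1a1* was at 12.2 and 4.21 FPKM, while *Col1a2* and *Pdgfra* did not exceed 0.363 FPKM. The leukocyte marker *Ptprc* and the endothelial marker *Pecam1* did not exceed 0.0601 FPKM. The part of other cell types in the results was not tested, and in bulk RNA fewer cells of a type and less RNA per cell cannot be told apart.

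Stretches of DNA just upstream of 5 members are shown as examples for the promoter search, which used features that the symbol rule did not. *Mrpl43*, *Mrpl42*, *Mrps17* and *Mrps27* had the largest rise or fall of their subunit among members with at least 50 upstream bases free of exons. *Mrps31*, *Mrps18b* and *Mrpl18* had no such stretch, and *Mrps28* had no promoter sequence. *Mrpl22* was the most abundant member whose stretch holds the motif GCGCATGC. The stretches are RefSeq sequences of build GRCm38.p6, written 5′ to 3′ on the strand of the gene, and end within 4 bases of a RefSeq start. Capitals mark a motif on either strand. *Mrpl43* (chr19:45006443-45006557, minus strand) and *Mrps27* (chr13:99344706-99344785, plus strand) hold the ETS motif CCGGAAG, *Mrpl43* in 2 copies and *Mrps27* in the reverse direction. *Mrpl22* (chr11:58171541-58171660, plus strand) holds that motif and the core GCGCATGC of the site of NRF1, a factor known for nuclear genes of mitochondrial proteins. *Mrps17* (chr5:129715377-129715496, plus strand) holds CCAAT in reverse, and the stretch of *Mrpl42* (chr10:95501950-95502069, minus strand) holds no motif that was searched, while its longer promoter window holds the YY1 motif and CCAAT. The longer window of *Mrps27* also holds the YY1 motif.
Mrpl43: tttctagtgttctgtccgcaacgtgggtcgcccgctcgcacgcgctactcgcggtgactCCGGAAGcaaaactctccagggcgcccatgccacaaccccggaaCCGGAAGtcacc
Mrps27: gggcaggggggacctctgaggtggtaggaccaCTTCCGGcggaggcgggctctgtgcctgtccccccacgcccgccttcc
Mrpl22: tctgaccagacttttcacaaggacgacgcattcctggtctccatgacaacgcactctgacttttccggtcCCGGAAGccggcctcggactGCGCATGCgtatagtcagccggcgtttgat
Mrps17: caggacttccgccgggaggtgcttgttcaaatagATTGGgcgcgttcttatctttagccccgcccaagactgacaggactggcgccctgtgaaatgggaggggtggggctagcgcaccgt
Mrpl42: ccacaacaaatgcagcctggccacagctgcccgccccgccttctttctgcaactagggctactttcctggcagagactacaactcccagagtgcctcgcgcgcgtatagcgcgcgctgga

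As a group, the members were at close to the same level in both libraries. Their FPKM summed to 3472 in the KPR- library and 3483 in the KPRrestored library, a log2 ratio of 0.0043, and the median member was at 38.4 and 38.1 FPKM. Differences are given as log2(FPKM + 0.005), KPRrestored minus KPR-, a scale that understates the change of genes near the pseudocount. The members' differences had a median of 0.043, quartiles of -0.11 and 0.15 and a range of -0.50 to 0.55. Over the 6958 genes in the same range of mean FPKM, the median was 0.0086 and the quartiles were -0.21 and 0.24. Of the members, 46 (59.7%) lay above 0, against 51.0% of those genes and 61.2% of the 2270 among them whose transcripts also lie between the lower and upper quartile of the members' lengths.

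Most members differed little between the libraries. Only 1 member was higher by 0.5 or more (*Mrps31*) and 1 was lower by as much (*Mrps28*). Of the 11231 genes at a mean FPKM of 1 or more, 12.1% reached that size upwards and 9.29% downwards, and in the members' range of mean FPKM 9.77% were higher and 7.04% were lower. Differences within 0.25 of 0 were found for 64 of the 77 members (83.1%), against 54.1% of genes in that range. These shares are descriptions of 2 libraries, and genes are not replicates.

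**Figure D1:**
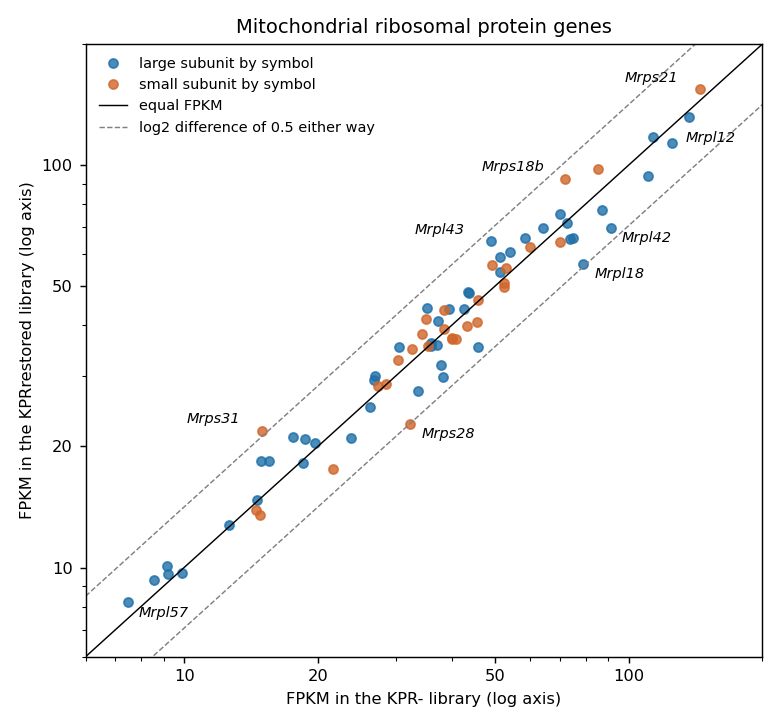
Each point is 1 of 77 mitochondrial ribosomal protein genes, with its FPKM in the KPR- library on the horizontal log axis and in the KPRrestored library on the vertical log axis. The points follow the line of equal FPKM from about 8 to 150 FPKM, and only *Mrps31* and *Mrps28* reach the dashed lines at a log2 difference of 0.5.

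Whether a member differed by more than counting error was asked by testing its estimated fragments in both libraries, given their depths, with an exact two-sided binomial test. The p-values were adjusted by Benjamini-Hochberg over 13437 genes, with a threshold of 0.05. It compares the libraries, not the conditions, and "rose" and "fell" are used here only for genes that passed it. Of the 77 members, 19 rose, 16 fell and 42 did not pass. Of all genes tested, 29.0% rose and 28.6% fell, and of the 6911 tested genes in the members' range of mean FPKM 35.3% rose and 34.4% fell. A member was measured with 105 to 5711 fragments in a library, with medians of 807 and 875, and the 95% counting interval (exact Clopper-Pearson limits) of a member's difference typically reached 0.14 to either side (median). The fragments rest on each gene's longest transcript and are upper estimates. With the shortest coding transcript, 10 members rose and 11 fell, and the share of all genes under that setting is not given here. Elsewhere the words rest on the longest transcript. With the shortest, the intervals of *Mrps17* (-0.091 to 0.57), *Mrps10*, *Mrpl24*, *Mrpl45*, *Mrpl30*, *Mrpl20* and *Mrpl48* span both signs. Those of *Mrps18a* (0.0073 to 0.38), *Mrpl55* (0.0087 to 0.61), *Mrps18c* (0.021 to 0.39) and *Mrpl3* (-0.56 to -0.024) come close to 0. These intervals are not adjusted for the number of genes tested. The calls that depend on the transcript chosen therefore include more members than those whose intervals span both signs.

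The medians of the large and the small subunit lay close together in these libraries. The 48 large-subunit members had a median difference of 0.048, with quartiles of -0.080 and 0.15, and 12 rose and 11 fell. The 29 small-subunit members had a median of 0.011, with quartiles of -0.11 and 0.12, and 7 rose and 5 fell. The medians differed by 0.038, where the SD of the differences was 0.20 within the large subunit and 0.20 within the small subunit. Summed FPKM went from 2179 to 2148 for the large subunit (log2 ratio -0.021) and from 1293 to 1334 for the small subunit (log2 ratio 0.045). No test was made over genes, which share their library.

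Symbols do not always give the place of a protein in the ribosome. *Mrps30* encodes mL65 and *Mrps18a* encodes mL66, both proteins of the large subunit, and *Mrps36* encodes a component of the 2-oxoglutarate dehydrogenase complex of the citric acid cycle. *Mrps30* was at 38.4 and 39.2 FPKM and *Mrps36* at 35.4 and 35.6 FPKM, and neither passed the test. Grouped by structure, the 50 large-subunit members had a median of 0.048 and the 26 small-subunit members a median of 0.0097.

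**Figure D2:**
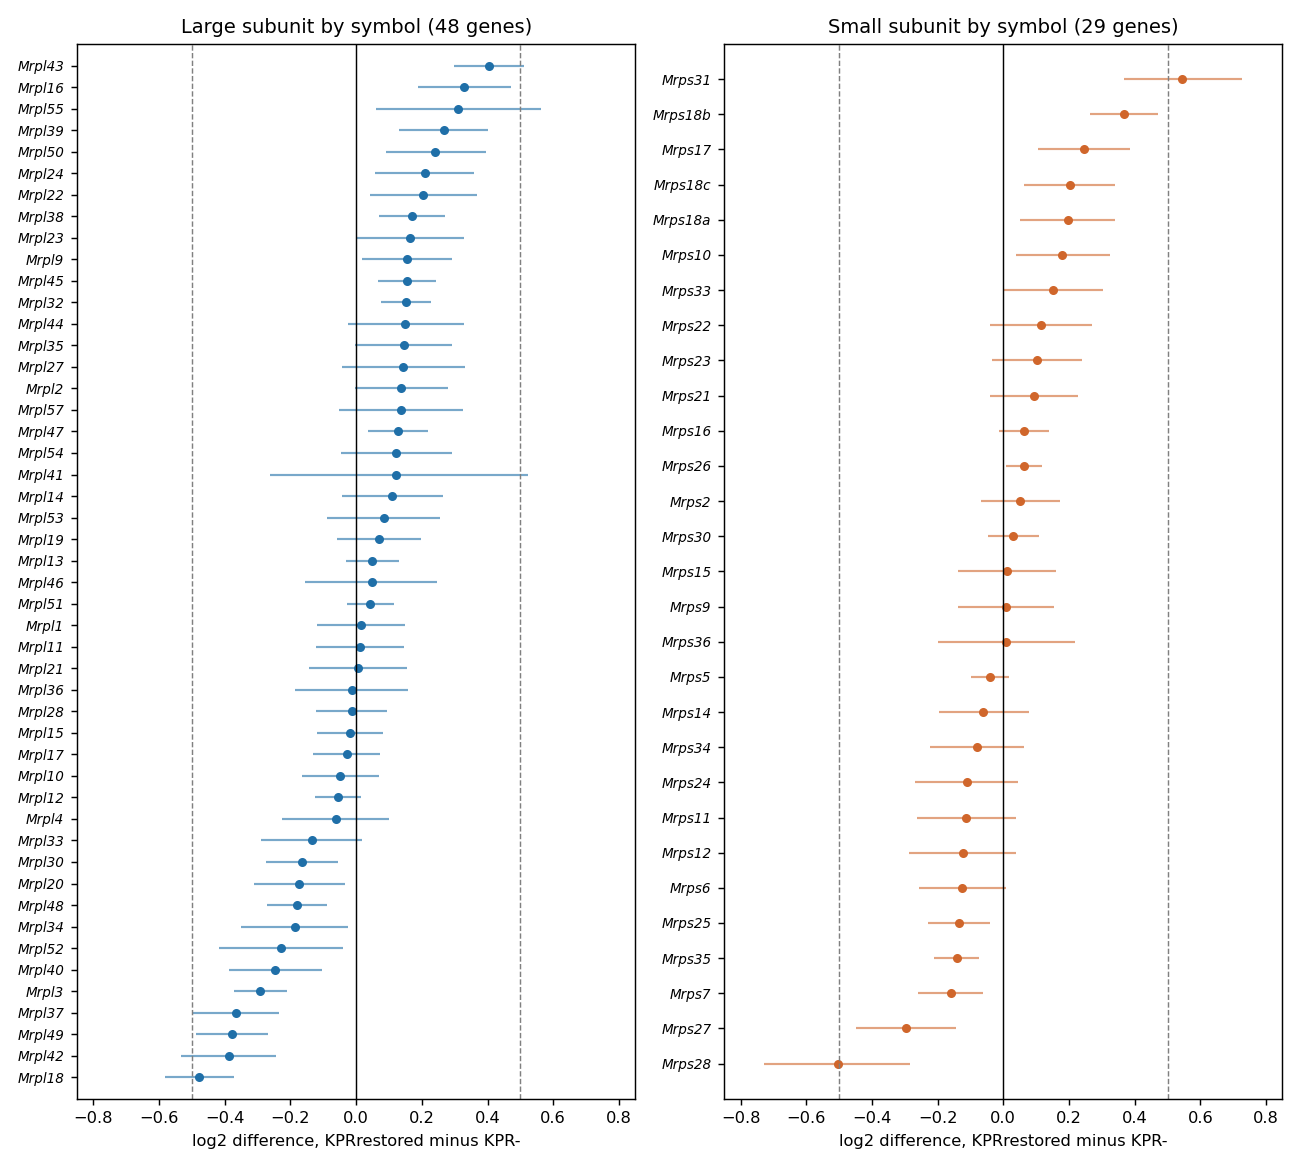
Points give the log2 difference (KPRrestored minus KPR-) of each large-subunit (left) and small-subunit member (right), sorted by size, with bars for the 95% counting interval and dashed lines at 0.5 either way. The intervals of 36 of 77 members leave out 0, on both sides of it in each subunit.

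Among large-subunit proteins with counterparts in all ribosomes, 4 of 16 rose and 3 fell. *Mrpl18* went from 79.1 FPKM to 56.8 FPKM, or from about 1737 to 1282 fragments. Its difference of -0.48 (counting interval -0.58 to -0.37) was the lowest of the large subunit. It encodes uL18m, whose bacterial relative binds a small ribosomal RNA that the mammalian mitoribosome has replaced with a tRNA. *Mrpl3* (uL3m, near the peptidyl transferase centre) fell from 33.5 to 27.4 FPKM, a difference of -0.29. The third gene that fell was *Mrpl30* (-0.16).

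Of the 4 that rose, none differed by as much as *Mrpl18*. *Mrpl16* (uL16m, near the site where tRNA enters the catalytic centre) rose from 35.1 to 44.1 FPKM, a difference of 0.33 (0.19 to 0.47). *Mrpl22* (uL22m, at the exit tunnel for the nascent chain) rose from 51.3 to 59.1 FPKM, a difference of 0.21 (0.042 to 0.37). *Mrpl24* (uL24m) rose from 30.5 to 35.2 FPKM, also a difference of 0.21, and *Mrpl47* (uL29m) rose by 0.13 on the log2 scale. *Mrpl23* (uL23m), another tunnel protein, went from 54.2 to 60.7 FPKM and missed the threshold, and *Mrpl4* (uL4m), inside the tunnel, went from 26.2 to 25.1 FPKM and did not pass. The class as a whole had a median of 0.032 in the large subunit.

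Among large-subunit proteins shared with bacterial ribosomes alone, 3 of 14 rose and 2 fell, with a median of -0.0039. *Mrpl55* (bL31m) rose from 14.9 to 18.4 FPKM, a difference of 0.31 on only about 236 and 301 fragments (0.061 to 0.56). The other rises were those of *Mrpl9* and *Mrpl32*, with differences of 0.16 and 0.15. *Mrpl34* (bL34m) fell from 75.1 to 66.0 FPKM, a difference of -0.19, and *Mrpl20* (bL20m) fell by 0.17 on the log2 scale. *Mrpl12*, whose product bL12m forms the stalk that recruits translation factors, was the most abundant large-subunit member at 137 and 132 FPKM. It did not pass the test, with a difference of -0.056 (-0.13 to 0.014).

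The mitochondria-specific proteins of the large subunit had the widest quartiles of the classes with 10 or more members, at -0.19 and 0.16. By structure there were 20 of them, of which 6 rose and 6 fell, around a median of 0.10. *Mrpl43* (mL43) rose from 48.9 to 64.8 FPKM, from about 1265 to 1721 fragments, the highest difference of the large subunit at 0.40 (0.30 to 0.51). *Mrpl39* (mL39) rose from 17.6 to 21.1 FPKM, a difference of 0.27. *Mrpl50* (mL50) rose from 15.6 to 18.4 FPKM, a difference of 0.24, and *Mrpl38* (mL38) from 58.5 to 65.8 FPKM, a difference of 0.17. *Mrpl45* (mL45), which lies at the tunnel exit and helps to tether the ribosome to the inner membrane, rose by 0.15 on the log2 scale. The sixth was *Mrps18a*, one of 3 *Mrps18* paralogues.

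In the other direction, *Mrpl42* (mL42) fell from 91.2 to 69.8 FPKM, a difference of -0.39 (-0.53 to -0.24). *Mrpl49* (mL49) fell from 45.8 to 35.3 FPKM, a difference of -0.38 (-0.49 to -0.27). *Mrpl37* (mL37) fell from 38.2 to 29.7 FPKM, a difference of -0.37. So the class held both the largest rise of the large subunit and 3 of its 4 lowest differences. *Mrpl40* (mL40) went from 37.9 to 31.9 FPKM and *Mrpl52* (mL52) from 110 to 94.2 FPKM, falls with differences of -0.25 and -0.23. The smallest of the 6 falls was that of *Mrpl48* (mL48), with a difference of -0.18.

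The small subunit held both members past 0.5. *Mrps31* (mS31, mitochondria-specific) rose from 15.0 FPKM to 21.9 FPKM, 1.46 times, on about 426 and 639 fragments. Its difference was 0.55 (0.37 to 0.73), with an adjusted p of 5.14e-09 in the exact binomial test. *Mrps28* (bS1m, a protein related to bacterial S1) fell from 32.3 FPKM to 22.8 FPKM, on about 402 and 291 fragments. Its difference was -0.50 (-0.73 to -0.28), with an adjusted p of 1.54e-05 in the same exact test. Both intervals include 0.5 in size, so counting error alone does not settle on which side of that threshold each gene lies. Just inside the threshold stood *Mrpl18* at -0.48 and *Mrpl43* at 0.40.

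The other small-subunit proteins that rose had smaller differences. *Mrps17* (uS17m, which binds the ribosomal RNA of the body of the subunit) rose from 35.1 to 41.6 FPKM, a difference of 0.24 (0.11 to 0.39). *Mrps10* (uS10m, in the head) rose from 38.4 to 43.5 FPKM, a difference of 0.18. *Mrps26* (mS26) was the member with the most fragments, about 5323 and 5711, and rose from 60.1 to 62.7 FPKM with a difference of only 0.062. *Mrps33* (mS33) and *Mrps22* (mS22), next after *Mrps10* in size of difference, did not pass the test, at 34.3 and 38.1 FPKM and at 30.2 and 32.7 FPKM.

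Falls of the small subunit were led after *Mrps28* by *Mrps27* (mS27, a pentatricopeptide repeat protein), which went from 21.6 to 17.6 FPKM, a difference of -0.29 (-0.45 to -0.14). *Mrps7* (uS7m, in the head) fell from 45.6 to 40.9 FPKM, a difference of -0.16. *Mrps35* (mS35) fell from 40.8 to 37.0 FPKM and *Mrps25* (mS25) from 14.8 to 13.5 FPKM, with differences of -0.14 and -0.13. The next 3 in order did not pass the test. *Mrps6* (bS6m) was at 70.1 and 64.3 FPKM, *Mrps12* (uS12m, at the decoding centre) at 43.3 and 39.7 FPKM, and *Mrps11* (uS11m) at 40.1 and 37.1 FPKM. Over all small-subunit proteins with counterparts in all ribosomes, 2 of 11 rose and 1 fell, and all 11 lay within 0.25 of 0.

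The 3 *Mrps18* paralogues, which descend from 1 bacterial protein and occupy different places in the mitoribosome, all rose. *Mrps18b* (mS40, small subunit) went from 71.8 to 92.5 FPKM, a difference of 0.37 (0.26 to 0.47). *Mrps18c* (bS18m, small subunit, the direct counterpart of the bacterial protein) went from 85.1 to 98.0 FPKM, a difference of 0.20. *Mrps18a* (mL66, large subunit) went from 49.3 to 56.5 FPKM, likewise a difference of 0.20. The intervals of *Mrps18c* (0.064 to 0.34) and *Mrps18a* (0.051 to 0.34) largely overlap, and that of *Mrps18b* begins inside both. With the shortest coding transcript, the intervals of *Mrps18c* and *Mrps18a* begin at only 0.021 and 0.0073.

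Levels per transcript length differed far more between members than between libraries. *Mrps21* (bS21m) was the highest of all members at 145 and 154 FPKM, followed by *Mrpl12*, by *Mrpl33* (bL33m) at 125 and 114 FPKM and by *Mrpl13* (uL13m) at 113 and 117 FPKM. *Mrpl52* came next, and *Mrps18c*, *Mrps18b* and *Mrps6* followed *Mrps21* within the small subunit. At the other end, *Mrpl57* (mL63) had 7.46 and 8.20 FPKM, *Mrpl41* (mL41) 8.57 and 9.31 FPKM, *Mrpl19* (bL19m) 9.20 and 9.66 FPKM and *Mrpl35* (bL35m) 9.14 and 10.1 FPKM. None of these 4 least abundant large-subunit members passed the test. The 4 least abundant of the small subunit were *Mrps25*, *Mrps14* (uS14m, at 14.5 and 13.9 FPKM), *Mrps31* and *Mrps27*. Neighbours in these orders, such as *Mrpl33* and *Mrpl13*, change places between the libraries. Differences did not follow level, with a Spearman rho of -0.085 between difference and mean FPKM over the 77 members of these 2 libraries, given as a description.

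Transcript length moved with the differences of all genes and is given here as a measured fact. Over 20 bins of the genes at a mean FPKM of 1 or more, the median difference went from 0.087 at a median longest transcript of 692 bases to -0.22 at 9392 bases. The members' transcripts were short, with a median of 1226 bases against 3015 bases for all these genes. Measured from that trend, the members' median was -0.0010, *Mrps31* was at 0.45, *Mrps28* at -0.58 and *Mrpl18* at -0.56. For the 2270 genes in the members' range of mean FPKM and between the quartiles of their lengths, the median was 0.089. Within the members, rho between difference and length was -0.017.

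**Figure D3:**
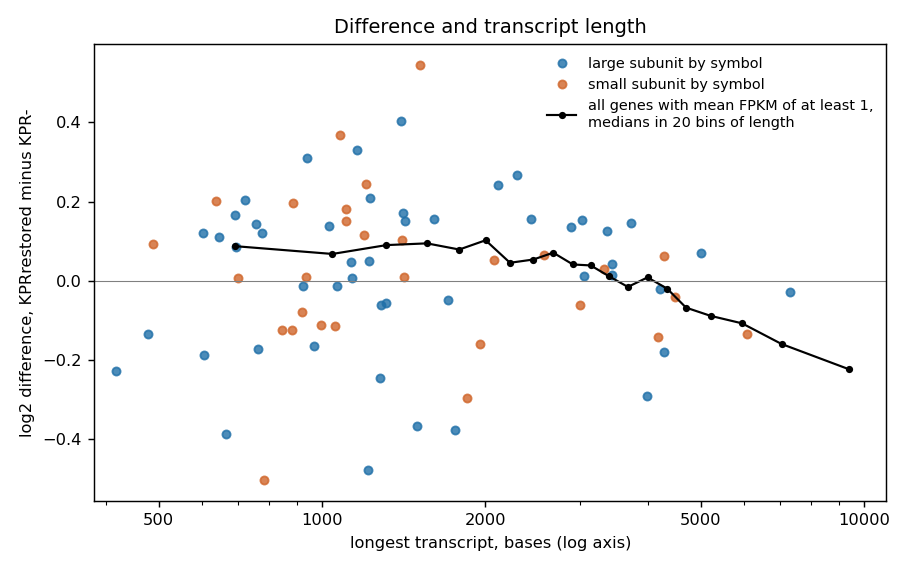
The log2 difference (KPRrestored minus KPR-) of each member is plotted against the length of its longest transcript in bases, on a log axis. The black line joins the medians of all genes at a mean FPKM of 1 or more in 20 bins of length and declines from 0.087 to -0.22, while members lie on both sides of it at most lengths.

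The mitoribosome also holds proteins whose genes are named otherwise, and these differed little too. *Dap3* (mS29, a GTP-binding protein) was at 19.3 FPKM in both libraries, and *Ptcd3* (mS39, near the entry of the mRNA) was at 61.7 and 60.6 FPKM. *Chchd1* (mS37) was at 64.5 and 61.7 FPKM and *Aurkaip1* (mS38) at 34.1 and 38.2 FPKM. *Gadd45gip1* (mL64) had about 995 and 1073 fragments, and *Ict1* (mL62, a peptidyl-tRNA hydrolase built into the large subunit) had 32.0 and 33.6 FPKM. Their differences ran from -0.064 to 0.16, and 0 of these 6 genes passed the exact binomial test, although the counting interval of *Aurkaip1* (0.014 to 0.31) leaves out 0.

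Among genes that work with the mitoribosome, some differed by more than any member. Of 16 genes in a broad list of mitochondrial translation factors, 0 rose and 8 fell, with a median of -0.15. *Lrpprc*, *Slirp* and *Letm1*, which are not translation factors in the strict sense, are among these 8, and *Oxa1l*, also listed, did not pass. *Gfm1*, the elongation factor that moves the ribosome along the mRNA, fell from 46.0 to 31.6 FPKM, a difference of -0.54 (-0.61 to -0.47). It was the only gene of this list past 0.5. Of 29 mitoribosome assembly factors, 5 rose and 7 fell around a median of 0.012. *Ngrn*, which binds the large ribosomal RNA, rose from 22.7 to 36.2 FPKM (0.67), and the RNA helicase *Ddx28* rose from about 464 to 737 fragments (0.63). *Mterf4*, which brings an rRNA methyltransferase to the ribosome, rose from 4.68 to 6.99 FPKM (0.58), and the GTPase *Mtg1* from 6.85 to 9.72 FPKM (0.50). *Fastkd2*, another protein of large-subunit assembly, fell from 15.8 to 10.2 FPKM, a difference of -0.63.

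Of 20 genes for mitochondrial transcription and RNA handling, 8 rose and 4 fell around a median of 0.022. *Lonp1*, the matrix protease that degrades the mitochondrial DNA packaging factor Tfam, rose from 113 to 189 FPKM, a difference of 0.74 (0.70 to 0.78). *Mterf1a* went from 2.70 to 4.01 FPKM and *Mterf2* from 3.87 to 5.73 FPKM, rises of 0.57 each for these members of the transcription termination factor family. Both rest on few fragments, about 68 and 105 for *Mterf1a* (0.13 to 1.05) and 114 and 174 for *Mterf2* (0.22 to 0.92). The 84 expressed genes for proteins of the cytosolic ribosome had a median of 0.060 and narrow quartiles of 0.0053 and 0.12, with 49 that rose and 10 that fell. The 75 nuclear genes for subunits of oxidative phosphorylation, the complexes that the products of the mitoribosome complete, had a median of 0.044, close to that of the members, with 23 that rose and 16 that fell. Of all genes tested, 29.0% rose and 28.6% fell, and in the members' range of mean FPKM 35.3% rose and 34.4% fell. Genes with more fragments pass this test at smaller differences. The cytosolic ribosomal genes had a median mean FPKM of 1132 and the oxidative phosphorylation genes of 118, against 38.8 for the members. No share of genes at the level of each list was computed, so these counts lack a like comparison.

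**Figure D4:**
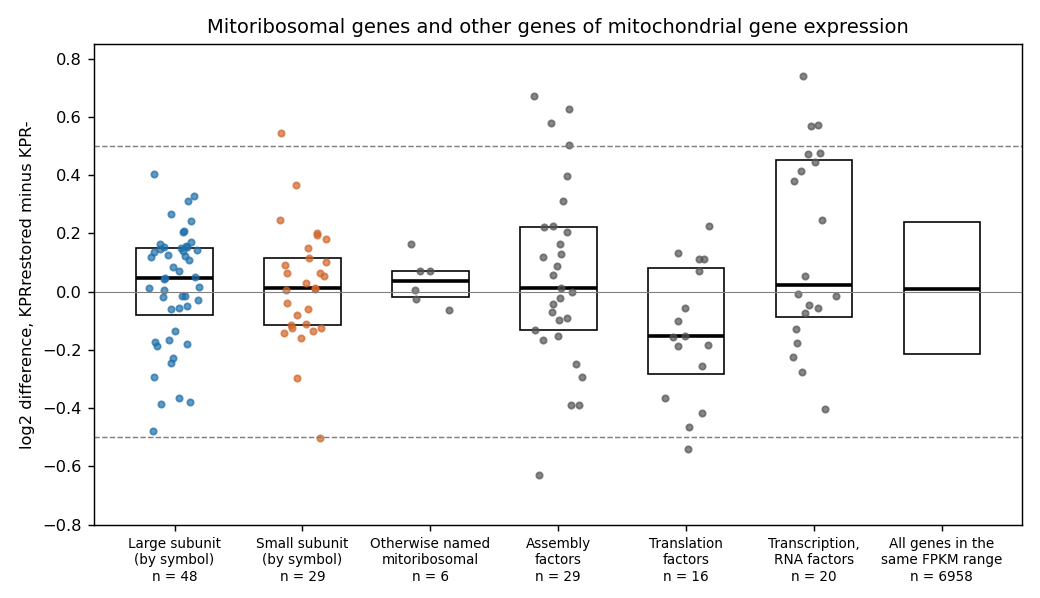
Points give the log2 difference (KPRrestored minus KPR-) of each gene, with boxes for the quartiles and thick lines for the medians, and dashed lines at 0.5 either way. Large- and small-subunit members centre near 0, with 1 small-subunit gene past each dashed line, and the broad list of translation factors centres at -0.15. The box of all 6958 genes in the members' range of mean FPKM, drawn without points, runs from -0.21 to 0.24.

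Some members start next to another gene. By GENCODE M21 positions, 29 of the 77 members had an opposite-strand gene that starts within 1000 bases upstream or overlaps the start by up to 500 bases. Only genes with deposited values were considered as neighbours. The share over all genes was not computed, so these counts do not set the members apart. For 24 members that neighbour had a mean of 1 FPKM or more, and the differences of member and neighbour had the same sign in 13. *Mrpl46* and *Mrps11* are each other's neighbour and are both among the 24. The neighbours named here were chosen after their values were seen. *Mrpl49* starts 58 bases from *Fau*, which encodes a protein of the cytosolic ribosome, and *Fau* went from 1458 to 1844 FPKM, a difference of 0.34 where that of *Mrpl49* was -0.38. *Mrps18b* starts 44 bases from *Ppp1r10*, which had a mean of 24.6 FPKM and a difference of 0.037 where that of *Mrps18b* was 0.37. *Mrps27* starts 80 bases from *Ptcd2*, at 22.3 and 20.4 FPKM with a difference of -0.13. *Mrpl46* and *Mrps11*, a member of each subunit, start head to head and overlap, and their differences were 0.047 and -0.11, neither past the test.

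Shared exon bases limit some of these values. In GENCODE M21, 32 of 77 members share exon bases with another gene, 27 of them with a gene on the opposite strand and 8 with one on the same strand. The share of all genes with such overlaps was not computed. Among members with large differences, *Mrpl43* shares 507 bases with *Twnk*, *Mrpl18* 141 with *Tcp1*, *Mrpl49* 91 with *Syvn1*, *Mrps18b* 638 with an antisense gene and *Mrps27* 506 with a noncoding transcript, all on the opposite strand. The library kit was directional, but the strand setting used to assign fragments is not given in the sources used here. Strand cannot separate genes on the same strand. Of the 8 members with such overlaps, only *Mrpl3* and *Mrps18c* passed the binomial test. *Mrpl3* (difference -0.29) shares 248 bases with *Gm38077*, and *Mrps18c* (0.20) shares 250 with *Gm43511*. *Mrps31*, *Mrps28*, *Mrpl42*, *Mrpl37* and *Mrpl16* share no exon bases with another gene. No named pseudogene of a member, of which GENCODE M21 lists 5, is in the tables.

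The promoters of the members, 300 bases from 250 before to 50 after each RefSeq start, were searched on both strands for 7 motifs, none of which contains another. RefSeq promoters of GRCm38.p6 were found for 68 members, 42 of the large and 26 of the small subunit. The ETS motif CCGGAAG was in 25 of them (36.8%), against 9.93% of all 27025 genes with a promoter and 21.7% of those at a mean FPKM of 1 or more. The YY1 motif AAGATGGC was in 12 (17.6%), against 3.19% and 5.68%, and the NRF1 core GCGCATGC in 8 (11.8%), against 3.05% and 6.32%. At least 1 of these 3 motifs was in 37 members (54.4%), 23 of the large and 14 of the small subunit, against 14.9% of all genes and 30.4% of expressed genes. So the motifs known from housekeeping and mitochondrial genes had higher shares here than in promoters at large, as counts without a test.

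The other 4 motifs gave shares near or below those of other genes. CCAAT was in 27 members (39.7%), against 41.1% and 43.3%. The E-box CACGTG was in 5 (7.35%), against 8.09% and 12.3%, and the cyclic AMP response element TGACGTCA was in 2 (2.94%), against 2.03% and 3.80%. The CARE motif TTGCATCA was in 0, against 1.03% and 0.698%, which says only that these letters are not in these windows. None of the 7 motifs was in 16 members. The median difference was 0.064 for the 25 members with the ETS motif and 0.015 for those without. It was 0.15 and 0.037 for the NRF1 core, held by 8 members (7 large-subunit), and -0.12 and 0.063 for the YY1 motif. In the same order it was 0.013 and 0.052 for CCAAT and -0.013 and 0.047 for the E-box. For the cyclic AMP response element it was -0.024 and 0.045. These medians were not tested, and a promoter can hold several motifs, as that of *Mrpl22* does.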

How the data were processed

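RNA from 1 KPR- and 1 KPRrestored culture was examined. The authors trimmed adapters and low-quality reads, mapped paired-end reads with TopHat, estimated FPKM with Cufflinks and deposited 1 FPKM value per gene and library. The paper also names a geometric normalization of read counts with edgeR, and it does not state whether the deposited values carry it. If they do, the fitted depths include that scaling. The submitters' processing notes name the build mm10. Versions and the annotation are not given in the sources used here.

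Differences were computed as log2(FPKM + 0.005), with thresholds of 0.5 and a mean FPKM of at least 1. Depths and a mean fragment length of 213 bases were fitted to the steps of low FPKM values with GENCODE M21 lengths. Among genes of 1 transcript length with 0.5 to 5.5 fragments, 75.4% (KPR-) and 77.9% (KPRrestored) lay within 0.1 of a whole fragment, where 20% would by chance. Estimated fragments of the 13437 genes with at least 10 over both libraries, whose effective length was at least 100 bases, entered an exact conditional binomial test with Benjamini-Hochberg adjustment over these genes. Test and 95% Clopper-Pearson intervals compare libraries and cover counting error only.

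The members, lists, motifs and tests were chosen with earlier results of these data known. Members named are those past 0.5, the 8 largest rises and falls and the 4 most and least abundant of each subunit, the *Mrps18* paralogues, *Mrps30* and *Mrps36*. Other members were named for passing the binomial test, for their place at the exit tunnel or for a neighbouring gene, after their values were seen. All otherwise named mitoribosomal proteins are named, and genes past 0.5 of the translation, assembly and transcription lists. Cytosolic ribosomal and oxidative phosphorylation genes are given as counts and medians. Alternatives were other pseudocounts, filters, scalings, thresholds, lists and transcript lengths, and removal of the length trend. The scripts were tested on simulated data with known depths and 1 known length per gene. Such data cannot check the annotation, the choice of transcript or the spread between cultures. The scripts ran under Python 3.11.15 with scipy 1.17.1 and pandas 2.3.3, numpy 2.4.6 and, for figures, matplotlib 3.10.9.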

Additional observations from a re-analysis of the deposited data

How the results depend on the processing

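Under 13 alternatives, 70 of 78 recomputed values stayed close to the main value, that is, within 1.5 times for a count and within 0.14, the median counting error of a member's difference, for a median or ratio. This tally was partly fixed in advance. The other filters on mean FPKM kept all 77 members, so their values could not move. Also, 0.14 exceeds every main median and ratio, so a change of sign still counted as close. The count of members higher and lower by 0.5 or more, 1 and 1 in the report, was 0 and 2 (*Mrps28* and *Mrpl18*) with the length trend removed, 0 and 0 at a threshold of 1, and 6 and 7 at a threshold of 0.25. With a pseudocount of 1, 0 members were lower by as much. With the shortest coding transcript, 10 members rose in place of 19. In 5 cases a value near 0 took the other sign. The median of the small subunit was -0.012 with libraries scaled to the same upper quartile and -0.021 with the length trend removed, and the median of all members was -0.0010 with that trend removed. The log2 ratio of summed FPKM was -0.0021 when scaled to the same FPKM total and -0.018 when scaled to the same upper quartile. The large subunit's median stayed above that of the small subunit, by 0.036 to 0.050, where it was recomputed. Scalings move both medians alike and the filters dropped no member, so these could not change the gap. Pseudocounts hardly act at the members' levels. Settings that could move it gave 0.036 (length trend removed), 0.050 (otherwise named proteins added, *Mrps36* left out) and 0.039 (subunits by structure). The gap is small beside the SD of 0.20 within each subunit. The scalings shifted all differences by at most 0.022 in size. No paired analysis was possible because each condition has 1 library. Depth limits single members: differences under about 0.14 are within the counting interval of a typical member, and the spread between cultures is unknown.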
